A study of Homo sapiens with 6 samples.

Results

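The cyclin-dependent kinase (CDK) inhibitors were followed across 6 one-colour expression arrays of A549 cells, an established human lung adenocarcinoma line. The genes looked for were CDKN1A, CDKN1B and CDKN1C of the CIP/KIP family, CDKN2A, CDKN2B, CDKN2C and CDKN2D of the INK4 family, and CDKN3. A probe set, a group of probes summarised into 1 value per array, was taken where the platform annotation gave it exactly 1 symbol and that symbol was among these 8. This found 22 of the 49293 probe sets tested, for 7 of the 8 genes. CDKN1A and CDKN1B had 2 probe sets each, CDKN1C, CDKN2A and CDKN2B had 3 each, CDKN2D had 1 and CDKN3 had 8. CDKN2C is not analysed here.

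LINC00525 knockdown cells and control cells were represented by 3 arrays each. The knockdown was of LINC00525, a long noncoding RNA, and the control received a scrambled sequence. Titles of both groups begin with "sh", but the protocol speaks of small interfering RNA. Knockdown replicates 2 and 3 carry LINC00526 and LINC00527 in their genotype field, and the grouping follows the titles. All arrays share 1 cell line, and whether replicates were separate cultures is not given in the labels, so the p-values here reflect array-to-array spread that may be technical. The title of the series places the question at p21, the product of CDKN1A.

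CDK inhibitors restrain the entry of cells into S phase. The CIP/KIP proteins, p21 from CDKN1A, p27 from CDKN1B and p57 from CDKN1C, bind complexes of cyclins with CDKs and block chiefly CDK2. The INK4 proteins, p16 from CDKN2A, p15 from CDKN2B, p18 from CDKN2C and p19 from CDKN2D, bind CDK4 and CDK6 and keep D-type cyclins from activating them. Either way the retinoblastoma protein stays in the form that holds back E2F transcription factors. CDKN3 belongs to neither family: it encodes a phosphatase that removes the activating phosphate of CDK2, and it is transcribed mainly in proliferating cells. CDKN2A is known to be homozygously deleted in A549 cells.

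The targeted transcript was measured by 1 probe set close to background, where it read 0.81-fold of control. LINC00525 stood at 3.67, 3.45 and 3.54 log2 units on knockdown arrays, against 3.86, 3.74 and 3.97 on control arrays, without overlap (log2 change -0.30 ± 0.075 SE, limma adjusted p = 0.0422). The call was lost without control replicate 1 or 3 or knockdown replicate 2 or 3 (limma adjusted p of 0.101 to 0.124). LINC00526 read 4.28, 4.25 and 4.09 on knockdown arrays, against 4.03, 3.96 and 4.13 on control arrays, with overlap (log2 0.17 ± 0.066 SE, limma adjusted p = 0.165), and LINC00527 is not analysed here. Background was judged from the 17 Tag controls of the array, artificial sequences absent from human RNA. Their mean signals were 2.26 to 4.65, and 2 of them lay above LINC00525. Over all genes together 2263 probe sets rose (4.59%) and 2590 fell (5.25%) at a limma adjusted p under 0.05, adjusted over all 49293. The split moved with scaling, to 2701 rises and 1890 falls after cyclic loess, 1184 and 20489 with arrays scaled to the poly-A controls, and 557 and 40238 with arrays scaled to the bacterial hybridization controls. The hybridization controls averaged 9.50 ± 0.045 on knockdown and 9.22 ± 0.11 on control arrays (SD, n = 3 each), so scaling to them lowers each log2 change by 0.28, and scaling to the poly-A controls lowers it by 0.14. A smaller rise therefore changes sign under that scaling, and values are relative to a typical probe set. The median change over all probe sets was -0.01 as deposited, -0.154 when scaled to the poly-A controls and -0.295 when scaled to the hybridization controls. Of 8 epithelial marker genes 7 had a probe set above all Tag controls, against 3 of 11 measured markers of other cell types, CD68 (6.57 and 6.73), PDGFRB and PECAM1. The 6 probe sets of PTPRC, the common leukocyte antigen, lay at 2.07 to 2.38, below the brightest Tag control.

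The proximal promoters of CDKN1A and CDKN1B are shown because these genes held the probe sets that rose, and that of CDKN3 because all its probe sets were lower on knockdown arrays. Each is a RefSeq window of 300 bases, 250 before the transcription start and 50 from it on, in build GRCh38.p14, read on the plus strand. They lie at chr6:36678464-36678763 for CDKN1A, chr12:12717118-12717417 for CDKN1B and chr14:54396757-54397056 for CDKN3. Capitals mark 3 motifs on either strand. GGGCGG is the core of the GC box bound by SP1, and CCAAT is the box bound by NF-Y. TTTGAA is the motif of the cell cycle genes homology region, bound by the DREAM complex.
CDKN1A: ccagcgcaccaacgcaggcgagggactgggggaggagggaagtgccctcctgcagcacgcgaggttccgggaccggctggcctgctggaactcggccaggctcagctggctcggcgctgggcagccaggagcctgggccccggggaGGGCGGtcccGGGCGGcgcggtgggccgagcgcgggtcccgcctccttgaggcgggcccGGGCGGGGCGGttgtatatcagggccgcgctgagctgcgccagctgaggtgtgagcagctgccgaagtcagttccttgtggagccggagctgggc
CDKN1B: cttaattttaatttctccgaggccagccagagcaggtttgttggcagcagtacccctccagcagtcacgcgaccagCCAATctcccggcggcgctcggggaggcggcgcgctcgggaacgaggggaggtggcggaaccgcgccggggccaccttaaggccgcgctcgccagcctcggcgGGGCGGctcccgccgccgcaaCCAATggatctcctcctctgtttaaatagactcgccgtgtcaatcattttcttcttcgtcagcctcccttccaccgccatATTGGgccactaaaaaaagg
CDKN3: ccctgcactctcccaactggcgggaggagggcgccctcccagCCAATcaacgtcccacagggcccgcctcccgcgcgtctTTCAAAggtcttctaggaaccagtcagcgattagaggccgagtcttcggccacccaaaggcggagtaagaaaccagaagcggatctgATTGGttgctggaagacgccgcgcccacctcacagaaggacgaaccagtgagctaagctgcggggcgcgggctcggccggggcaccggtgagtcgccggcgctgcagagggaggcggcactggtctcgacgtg

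The CDKN1A window held 4 GGGCGG motifs, first bases at -104, -94, -45 and -40 relative to the start, of which the last pair share 1 base. It also held TATA at -31, a motif not capitalised above, and neither CCAAT nor TTTGAA. CDKN1B had 1 GGGCGG at -71 and 3 CCAAT, at -174, -50 and, on the other strand, 31. CDKN3 had no GGGCGG. It held CCAAT at -208 and, on the other strand, at -83, beside 1 TTTGAA on the other strand at -170. Among 35116 RefSeq windows of this length, 45.0% held GGGCGG, 34.6% CCAAT, 15.2% TTTGAA and 29.2% TATA. The title of the series speaks of triplexes, structures that form at runs of purines on 1 strand, so the longest run of only A and G, or only C and T, was measured as well. In CDKN1A it spanned 15 bases, from -223 to -209, and 19.9% of the windows held a run at least that long. The longest runs were 11 bases in CDKN1B and 10 bases in CDKN3, lengths reached in 57.8% and 72.0% of the windows, against 24 and 20 bases in the 2 windows listed for CDKN2A, reached in 2.75% and 6.03%. These matches describe letters and say nothing about binding.

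Of the 22 CDK inhibitor probe sets 3 rose, beside 4.59% of all probe sets, and 0 fell, beside 5.25% (limma adjusted p under 0.05). Both CDKN1A probe sets and 1 of the 2 for CDKN1B made up the rises, and the CDKN1B value turned to -0.09 when scaled to the hybridization controls. At an unadjusted p under 0.05 there were 9, these 3 and 6 for CDKN3, against 12173 of all 49293 probe sets. The groups did not overlap at 13 of the 22 probe sets. Knockdown arrays were all higher at 4 of these, beside 11.8% of all probe sets, and all lower at 9, beside 16.8%. The 4 were the probe sets of CDKN1A and CDKN1B. Of the 9, 8 were readings of CDKN3 and the other was for CDKN2B near background, so the counts rest on few genes. The median log2 change was -0.06 over the 22 and -0.01 over all probe sets. Among the 7 CIP/KIP probe sets 3 rose and 0 fell. Among the 7 INK4 probe sets 0 rose and 0 fell, none of them at an unadjusted p under 0.05. Signals lay below the brightest Tag control at 6 of the INK4 and 3 of the CIP/KIP probe sets, so these counts do not compare the families. The 3 INK4 probe sets for CDKN2A read a gene known to be homozygously deleted in A549 cells.

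**Figure D1:**
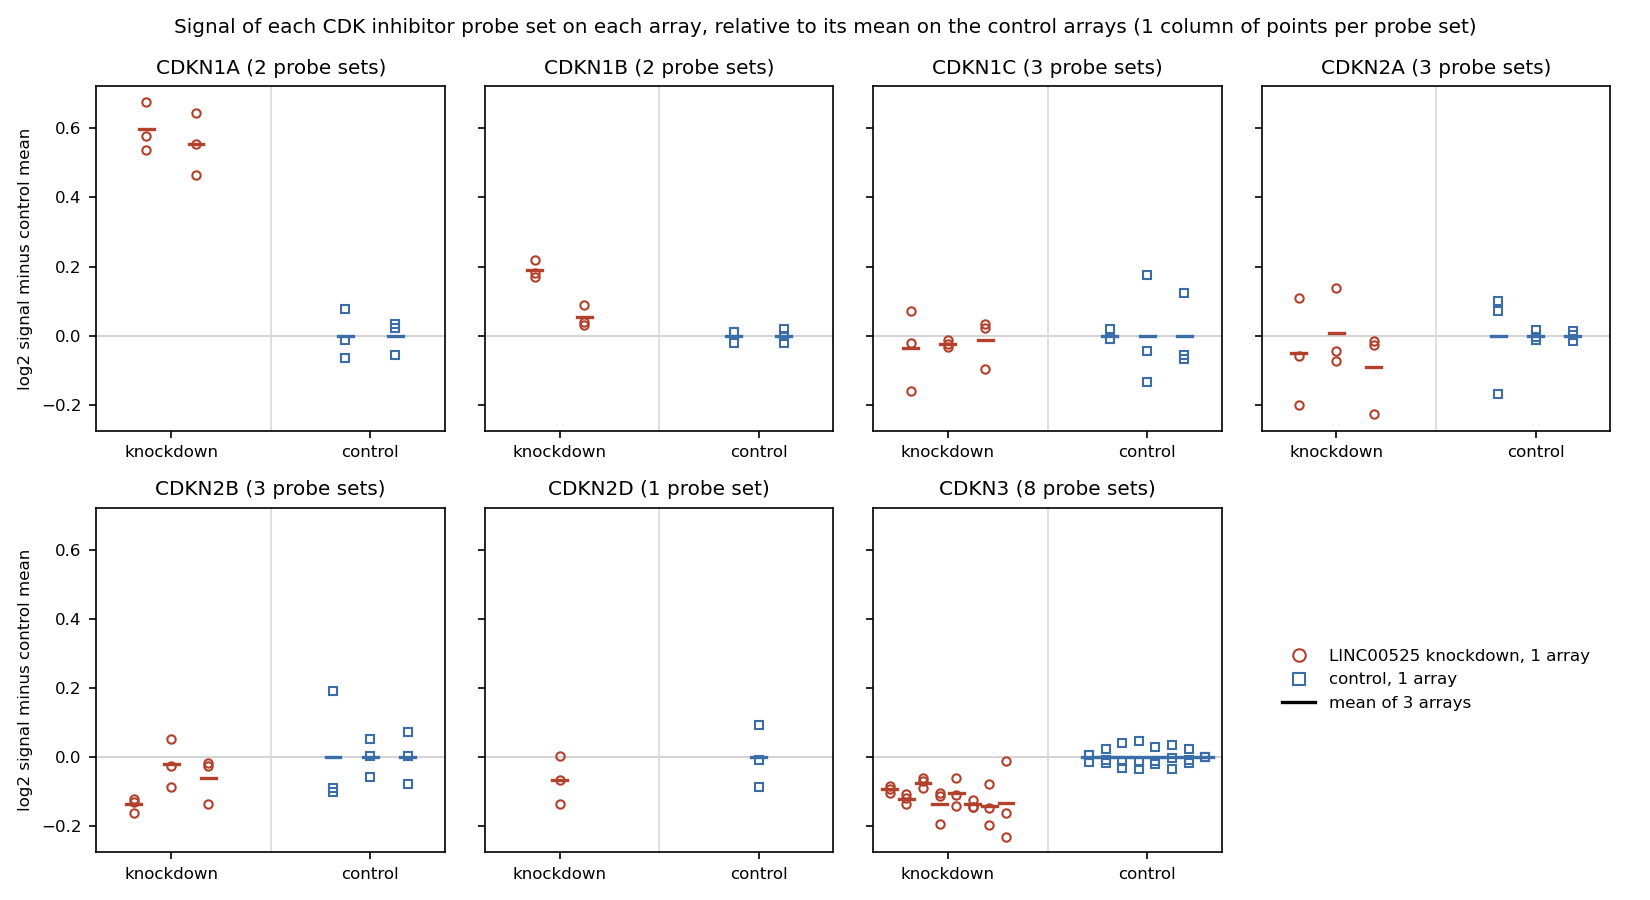
Log2 signal of the 22 CDK inhibitor probe sets on 3 knockdown and 3 control arrays, as deposited, each minus the mean of its 3 control arrays. Points are arrays, bars are means of 3, and each column of points is 1 probe set. Knockdown arrays lie above all control arrays at both CDKN1A and both CDKN1B probe sets and below them at all 8 CDKN3 probe sets. Over all probe sets, knockdown arrays were all higher at 11.8% and all lower at 16.8%.

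CDKN1A rose at both of its probe sets. Its product p21 is induced by p53 and by other signals, and it holds cells in G1. Probe set 11715388_s_at read 10.00, 10.09 and 10.18 on knockdown arrays, against 9.56, 9.57 and 9.48 on control arrays. Probe set 11715387_at read 8.42, 8.46 and 8.56 on knockdown arrays, against 7.87, 7.96 and 7.82 on control arrays. The groups stayed apart by 0.43 and 0.46 log2 units, more than the range within either group. At 11715388_s_at the means were 10.09 ± 0.090 in knockdown and 9.54 ± 0.049 in control cells (SD, n = 3 each), a 1.47-fold rise with a 95% confidence interval of 1.34 to 1.61 (log2 0.55 ± 0.057 SE, limma adjusted p = 0.00105). At 11715387_at they were 8.48 ± 0.072 in knockdown and 7.88 ± 0.071 in control cells, a 1.51-fold rise with an interval of 1.38 to 1.65 (log2 0.60 ± 0.056 SE, limma adjusted p = 0.000673). Both calls held under all 14 alternative settings, at log2 changes of 0.272 to 0.598 for 11715388_s_at and 0.315 to 0.635 for 11715387_at. The rise was not among the largest: 418 probe sets had a larger positive change than 11715388_s_at and 361 than 11715387_at, whether or not they passed the test. The suffix _s_at marks probes shared by several transcripts.

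CDKN1B, which encodes p27, an inhibitor controlled largely through degradation of the protein, rose slightly at 1 probe set. Probe set 11717091_s_at read 8.05, 8.01 and 8.0 on knockdown arrays, against 7.84, 7.81 and 7.84 on control arrays. Without overlap between groups, this was a 1.14-fold rise (log2 0.19 ± 0.041 SE, 95% confidence interval 0.10 to 0.28, limma adjusted p = 0.0250), but the value was -0.09 under scaling to the hybridization controls. The call was lost without any 1 array except knockdown replicate 3 (limma adjusted p of 0.0666 to 0.0933), and it was lost with the arrays scaled to the poly-A controls (0.05, limma adjusted p = 0.490). Probe set 11748603_a_at read 7.29, 7.30 and 7.35 on knockdown arrays, against 7.26, 7.24 and 7.28 on control arrays. Here the groups were separated by 0.01 and the change did not pass the test (log2 0.05 ± 0.041 SE, interval -0.04 to 0.15, limma adjusted p = 0.488). Scaled to the hybridization controls this probe set fell (-0.228, limma adjusted p = 0.0263), beside 40238 of all 49293 probe sets. The log2 signal of the first probe set exceeded that of the second by 0.76, 0.71 and 0.65 on knockdown arrays, against 0.58, 0.57 and 0.56 on control arrays. This difference between probe sets was larger by 0.137 in knockdown cells (two-sided exact permutation p = 0.1, the smallest that 3 against 3 arrays allow), a comparison chosen after the values were seen. Which transcripts each probe set reads was not tested.

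CDKN1C, the gene of p57, a largely developmental inhibitor, stayed near background. Its 3 probe sets had log2 changes of -0.04, -0.02 and -0.01 (limma adjusted p of 0.773 to 0.929). The brightest, 11729118_a_at, read 4.20, 4.29 and 4.06 on knockdown arrays, against 4.21, 4.24 and 4.21 on control arrays. The groups overlapped at all 3, and 1 of the 17 Tag probe sets lay above each. The confidence intervals ran from -0.20 to 0.15 at the widest, and signals near background understate differences.

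**Figure D2:**
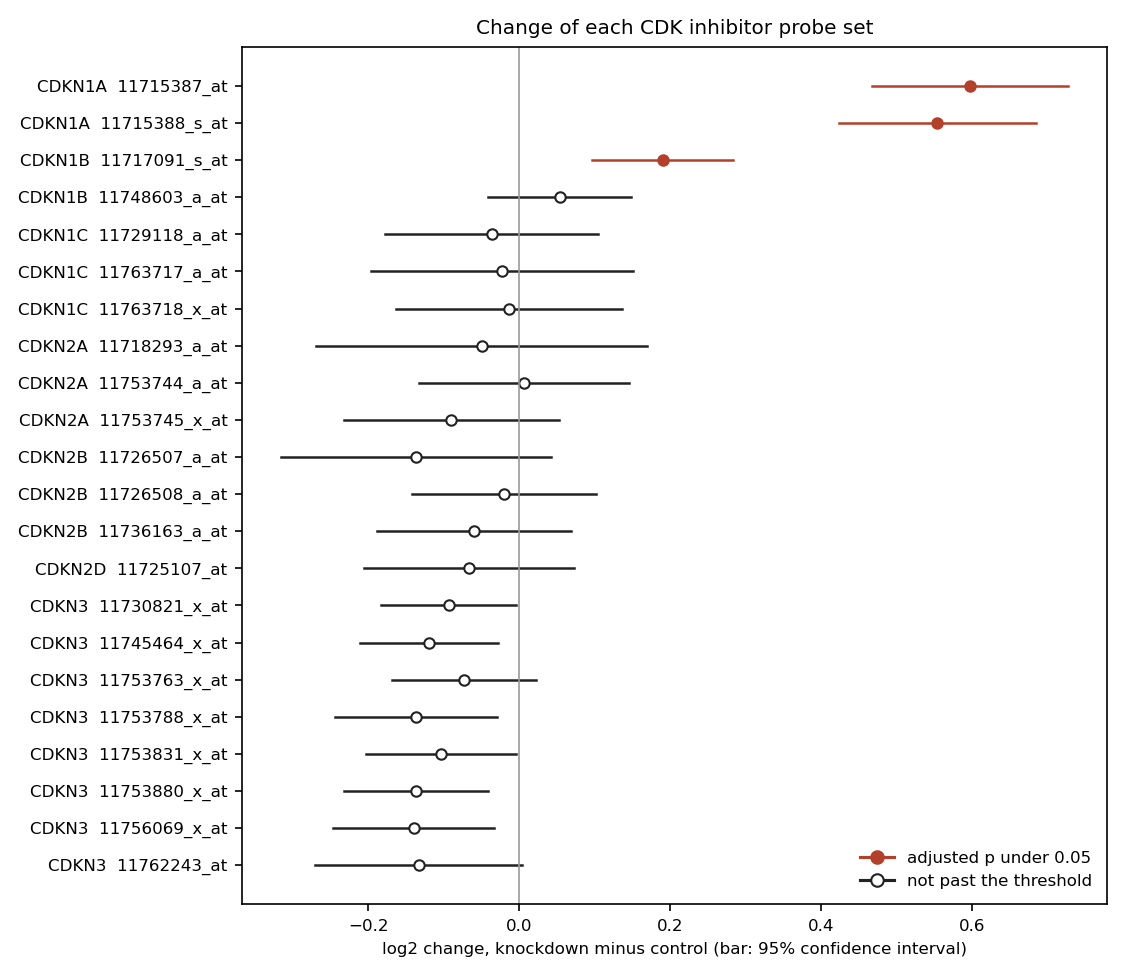
Log2 change, knockdown minus control, of the 22 CDK inhibitor probe sets with 95% confidence intervals. Filled points passed a limma adjusted p under 0.05: both CDKN1A probe sets at 0.55 and 0.60 and 1 for CDKN1B at 0.19. The 8 CDKN3 points lie between -0.14 and -0.07.

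The INK4 genes gave no call as deposited, and 6 of their 7 probe sets had signals below the brightest Tag control. CDKN2A had 3 probe sets at mean signals of 3.25 to 3.76, with 1 to 4 of the 17 Tag probe sets above them. At 11718293_a_at it read 3.90, 3.73 and 3.59 on knockdown arrays, against 3.86, 3.89 and 3.62 on control arrays. The groups overlapped at all 3 probe sets, and log2 changes were -0.05, 0.01 and -0.09 (limma adjusted p of 0.427 to 0.962).

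CDKN2B, a target of transforming growth factor beta that lies beside CDKN2A, had 3 probe sets at mean signals of 2.05 to 3.0. Probe set 11726507_a_at read 2.91, 2.95 and 2.94 on knockdown arrays, against 3.26, 2.97 and 2.98 on control arrays. Knockdown arrays were lower without overlap, by a gap of 0.02, and control replicate 1 stood above the other control arrays (log2 -0.14 ± 0.078 SE, limma adjusted p = 0.329). The signal was within background, with 6 of the 17 Tag probe sets above its mean. All 17 Tag probe sets lay above the other 2, whose changes were -0.02 and -0.06. CDKN2D, whose product p19 is made in many tissues, was the INK4 gene above all Tag probe sets. It read 5.01, 4.94 and 4.87 on knockdown arrays, against 5.10, 4.92 and 5.00 on control arrays, with overlap (log2 -0.07 ± 0.060 SE, 95% confidence interval -0.21 to 0.07, limma adjusted p = 0.558).

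Neighbours of CDKN2A and CDKN2B on chromosome 9 were read beside them, in the gene order MTAP, CDKN2A, CDKN2B, DMRTA1, with KLHL9 as a further gene of the region. Of the 13 probe sets of KLHL9, MTAP, CDKN2B-AS1 and DMRTA1, 1 rose (7.69%, beside 4.59% of all probe sets) and 0 fell. KLHL9, an adaptor of a ubiquitin ligase, had log2 changes of -0.24 to -0.05 at 5 probe sets, none past the test. MTAP, which encodes a methionine salvage enzyme, lay at mean signals of 1.98 to 2.63 at 4 of its 6 probe sets and at 5.23 and 7.30 at the others, with none past the test. The antisense transcripts CDKN2A-AS1 and CDKN2B-AS1 had log2 changes of 0.01 and 0.22 (limma adjusted p = 0.954 and 0.0707). Both lay within background, at mean signals of 3.38 and 2.76, with 2 and 9 Tag probe sets above them. Whether these probes tell the strands apart is not given in the sources used here. DMRTA1, a gene of the doublesex and mab-3 related family, read 4.66, 4.93 and 4.82 on knockdown arrays, against 4.16, 4.08 and 4.04 on control arrays. It rose by 0.71 ± 0.072 (SE, log2, limma adjusted p = 0.000982), with 1 Tag probe set above its mean signal.

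**Figure D3:**
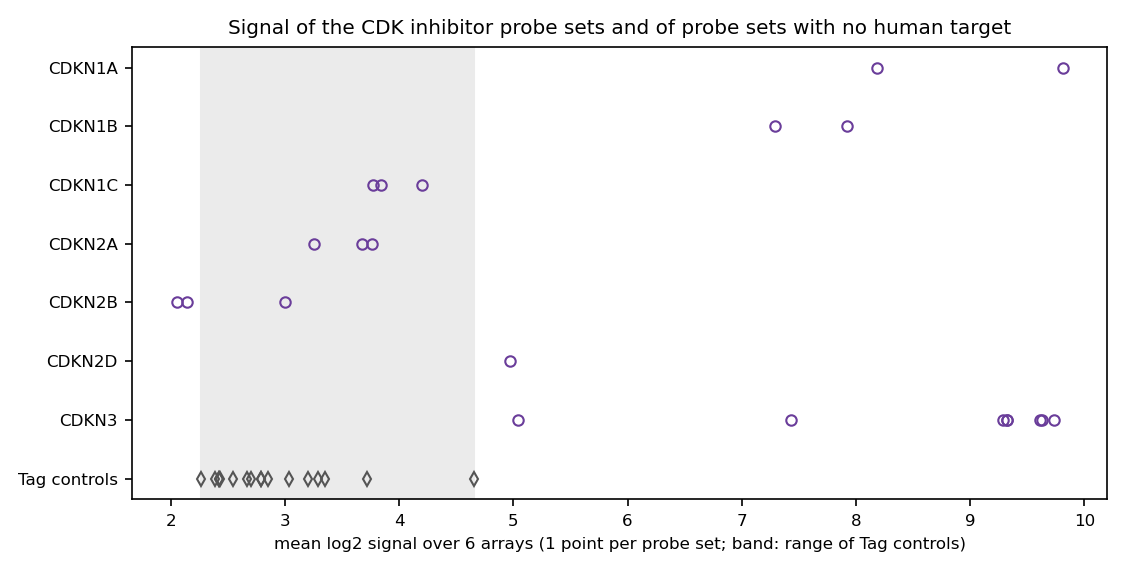
Mean log2 signal over all 6 arrays of each CDK inhibitor probe set, set against the 17 Tag control probe sets, whose means span 2.26 to 4.65 (band). The probe sets of CDKN1C, CDKN2A and CDKN2B lie in or below the band, and those of CDKN1A, CDKN1B, CDKN2D and CDKN3 lie above it. Signals of different probe sets are not on a common scale of transcript number.

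CDKN3 was lower on every knockdown array than on every control array at all 8 of its probe sets, beside 16.8% of all probe sets. None of the 8 passed the test. Log2 changes ran from -0.14 to -0.07, or 0.907-fold to 0.95-fold, with a median of -0.127 (limma adjusted p of 0.0785 to 0.328). Of these probe sets 6 had an unadjusted p under 0.05, against 12173 of all 49293 probe sets. The lowest adjusted p belonged to 11753880_x_at, which read 7.35, 7.37 and 7.35 on knockdown arrays, against 7.49, 7.46 and 7.53 on control arrays (log2 -0.14 ± 0.041 SE, 95% confidence interval -0.23 to -0.04). The bright 11756069_x_at read 9.31, 9.24 and 9.19 on knockdown arrays, against 9.41, 9.37 and 9.38 on control arrays. Signals at 11762243_at were 5.10, 4.95 and 4.88 on knockdown arrays, against 5.11 on each control array, so knockdown replicate 1 almost met the controls there.

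The 8 readings of CDKN3 are not independent, as they come from the same RNA, and 7 probe sets carry the suffix _x_at, whose probes can bind related sequences. How many passed depended on the model: 8 of 8 with arrays scaled to the hybridization controls (-0.42 to -0.36) or to the poly-A controls (-0.28 to -0.21), 6 with an intensity trend in the variance, 2 without variance moderation, 1 with dim probe sets removed and 0 after cyclic loess (-0.12 to -0.04). None passed with any 1 array left out. The lower value itself was kept at all 8 probe sets in each of these settings. In a bulk sample, fewer cycling cells and less RNA per cell cannot be told apart.

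**Figure D4:**
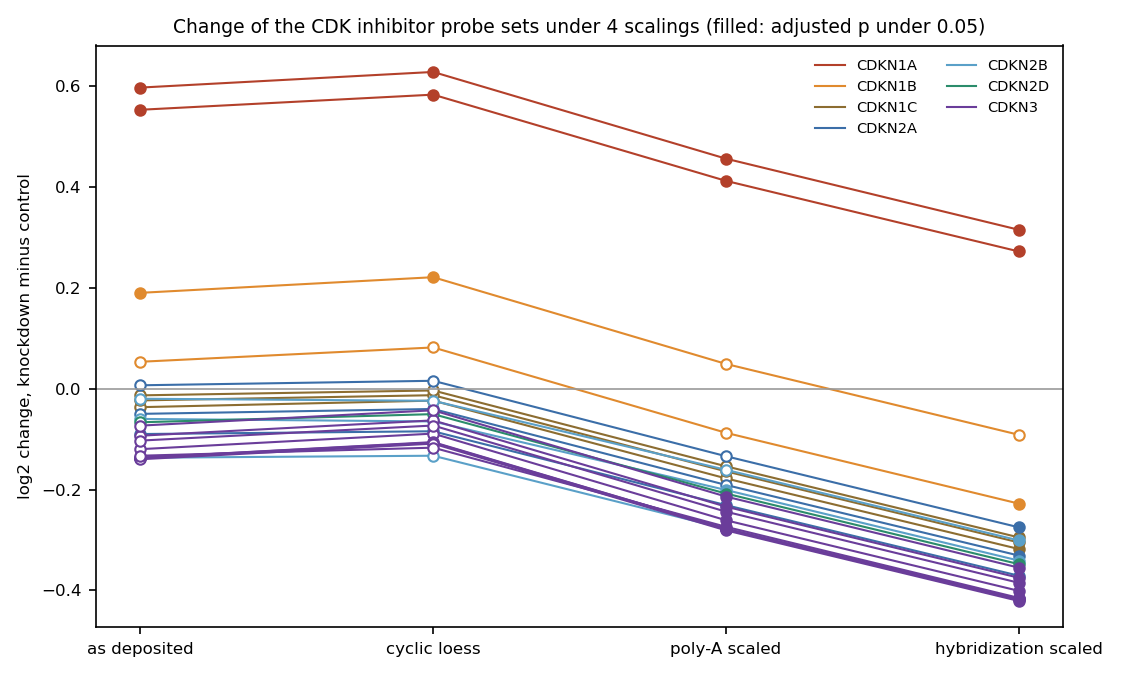
Log2 change, knockdown minus control, of the 22 CDK inhibitor probe sets as deposited, after cyclic loess, scaled to the poly-A controls and scaled to the hybridization controls. Filled points passed a limma adjusted p under 0.05. CDKN1A is filled in all 4, CDKN1B changes sign when scaled to the hybridization controls, and CDKN3 is lower in all 4 but filled under scaling to control probe sets alone.

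Scaled to the hybridization controls, 19 of the 22 probe sets fell, including the probe sets of CDKN1C, CDKN2A and CDKN2B near background, and scaled to the poly-A controls 12 fell. The 2 CDKN1A probe sets still rose in both cases. Under these scalings 40238 and 20489 of all 49293 probe sets fell. Whether the control RNA or the cellular RNA differed between groups was not tested.

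Partners of the inhibitors were read from lists chosen by function, but with earlier results of these data known. The shares given for these and the following lists therefore describe the listed genes and test nothing. Among 12 CDK, cyclin and PCNA genes with 32 probe sets, 0 probe sets rose, beside 4.59% of all probe sets, and 6 fell (18.8%, beside 5.25%). The median log2 change was -0.09, against -0.01 over all probe sets. CCNE2, the cyclin E2 that activates CDK2 at the start of S phase, fell by 0.72 and 0.30 at 2 probe sets (limma adjusted p = 0.00551 and 0.0164). PCNA, the sliding clamp of DNA replication that p21 also binds, fell by 0.38 at 1 of 2 probe sets, and the other, 11716103_a_at, changed by -0.15 without passing (limma adjusted p = 0.0534). CCNB1 fell by 0.26 at its only probe set. CCND3 fell by 0.27 at 1 of 2, with 0.04 at the other, and CDK1 fell by 0.17 at 1 of 3, with -0.28 and -0.14 at the others, not passed. Of 26 probe sets for 10 pocket protein and E2F genes 0 rose, beside 4.59% of all, and 4 fell (15.4%, beside 5.25%), with a median of -0.05. E2F1 fell by 0.22 at its only probe set, and E2F2 fell by 0.29 at 1 of 2, with -0.23 at the other. RB1 fell by 0.24 at 1 of 3 probe sets, while the other values were 0.04 and 0.10. TFDP1 fell by 0.21 at 1 of 5, with the rest between -0.08 and 0.

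Genes for the turnover of the inhibitor proteins gave 2 rises in 45 probe sets of 15 genes (4.44%, near the 4.59% of all probe sets) and 5 falls (11.1%, beside 5.25%), with a median of -0.07. DTL, which directs the CUL4 ubiquitin ligase to p21, fell by 0.47 and 0.34 (limma adjusted p = 0.000686 and 0.00828). The ligase scaffold CUL4B rose by 0.25 at 1 of 3 probe sets, with 0.06 and 0.12 at the others. The 0.25 is a value below the 0.28 by which scaling to the hybridization controls lowers each change.

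Regulators of transcription of the inhibitor genes gave 13 rises in 88 probe sets (14.8%, beside 4.59% of all) and 4 falls (4.55%, near the 5.25% of all), over 19 measured genes of 24 listed (median 0.01). The 3 largest were all for KLF6, a zinc finger factor known to activate CDKN1A, at 0.88, 0.83 and 0.77 (limma adjusted p = 0.000149 for the largest). The other 2 KLF6 probe sets, at 0.11 and 0.14, did not pass. MDM2 rose at 4 of 11 probe sets, SMAD3 at 3 of 5, FOXO1 at 2 of 4 and MYC at its only one. The MDM2 rise at 11753819_a_at (0.19) had 3 Tag controls above its signal, and the FOXO1 rise at 11727927_a_at (0.29) had 2. The other 7 MDM2 probe sets, with values of up to 0.40, did not pass. Some of these rises, such as the 0.18 of MYC, lie below the 0.28 by which scaling to the hybridization controls lowers each change. EED fell at 1 of 4 probe sets and SMAD4 at 1 of 7. EZH2, the Polycomb methyltransferase that can silence CDKN2A and CDKN1A, fell by 0.29 and 0.41 at 2 probe sets (limma adjusted p = 0.0103 and 0.0130) and stood at -0.01 at the third.

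Among RNA-binding regulators of the inhibitor mRNAs, 8 of 58 probe sets rose (13.8%, beside 4.59% of all) and 1 fell (1.72%, beside 5.25%), over 14 measured genes of 15 listed. RBM24, which is known to stabilise CDKN1A mRNA, rose by 0.48, 0.39, 0.32 and 0.31 at 4 of 5 probe sets. RBMS2, also reported to bind that mRNA, rose by 0.37 and 0.23 at 2 of 8 probe sets (limma adjusted p = 0.00560 and 0.0378), and its 8 values spanned -0.18 to 0.37. HNRNPD rose by 0.33 at 1 of 8 probe sets, one with 2 Tag controls above its signal, and its other values, -0.22 to 0.17, did not pass. PCBP2 fell by 0.28 at 1 of 8, with the rest at -0.32 to 0.04, not passed. RBMS1 rose by 0.16 at 1 of 3, with 0.13 and 0.15 at the others. The 0.16 of RBMS1 and the 0.23 of RBMS2 lie below the 0.28 by which scaling to the hybridization controls lowers each change.

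Markers of other cell types gave 3 rises (7.69%, beside 4.59% of all probe sets) and 0 falls (beside 5.25%) in 39 probe sets of 11 measured genes, of 12 listed. CD68, a lysosomal protein, rose by 0.61 and 0.33 at both its probe sets. ITGAM rose by 0.30 at 1 of 3, with 2 Tag controls above it and -0.11 and 0.11 at the others. The mean of this list was 3.265 to 3.277 on knockdown arrays and 3.22 to 3.268 on control arrays. Epithelial markers gave 2 rises and 2 falls in 21 probe sets of 8 genes (9.52% each, beside 4.59% and 5.25%). CLDN4 rose by 0.55 at 1 of 3 probe sets, with 1 Tag control above it and 0.02 and 0.24 at the others, not passed. KRT19 rose by 0.29 at its only probe set. KRT8 fell by 0.21 and 0.16 at 2 of 8, with the rest at -0.15 to -0.09. The part of either list in the CDK inhibitor values was not tested.

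The profile of CDKN1A across the 6 arrays was compared with that of other genes by the root mean square difference of log2 values, each profile centred on its own mean and read at 11715388_s_at. The 5 nearest genes were EXT1 at 0.017, ARHGAP5 at 0.0197, PLAUR at 0.0222, KLF2 at 0.0339 and BDKRB1 at 0.035, with the other CDKN1A probe set at 0.0353 and a median of 0.298 over all probe sets. EXT1, a heparan sulfate polymerase, read 7.27, 7.35 and 7.43 on knockdown arrays, against 6.86, 6.84 and 6.77 on control arrays. PLAUR, the urokinase receptor, read 6.41, 6.55 and 6.61 on knockdown arrays, against 6.01, 6.01 and 5.96 on control arrays. The log2 changes of the 5 genes lay between 0.52 and 0.53, close to the 0.55 of CDKN1A, and a likeness over 6 arrays in 2 groups is mostly a likeness of that change.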

How the data were processed

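The authors deposited log2 values with 2 decimals for 49372 probe sets on 6 arrays, made with RMA per the submitters' processing notes; the sources used here give neither its software nor its settings. RMA corrects background, gives all arrays 1 distribution (medians were 5.10 to 5.11) and so removes a change shared by most genes. The values were not normalized again. After 79 control probe sets were set aside, 49293 were tested. The platform annotation gave 44994 probe sets exactly 1 symbol, 1832 several and 2546 none, and 44967 symbols were matched by gene identifier.

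Knockdown was compared with control with lmFit and eBayes of limma 3.58.1 (R 4.3.3; 2-sided, no covariate), with Benjamini-Hochberg adjustment over all tested probe sets and a threshold of 0.05. "Rose" and "fell" mean that this was passed. Errors of means are SDs over 3 arrays and those of changes are SEs. The number of arrays limits the precision. The fit was tested on simulated data. Figures were drawn with matplotlib 3.10.9.

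Alternatives were cyclic loess, scaling to hybridization or poly-A controls, no variance moderation, an intensity trend, removal of probe sets at or below the 95th percentile of the Tag controls, restriction to probe sets with 1 symbol, 1 value per gene, a replicate block, and each array left out. Same-numbered arrays did not deviate together (correlations of 0.0929, 0.0624 and -0.00719), and the replicate numbers were therefore not treated as pairing them. Arrays correlated at 0.998 to 0.999 within and 0.996 between groups, and no pair shared over 4.82% identical values.

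The members and gene lists were chosen with earlier results of these data known. Every member is described. Of each list the 3 probe sets with the largest change past the threshold are named, and all called genes where 5 or fewer were called, with the 5 genes nearest to CDKN1A and the transcripts LINC00525, RBMS2 and EZH2. PTPRC, PDGFRB, PECAM1, KLHL9, MTAP and the antisense transcripts of the 9p21 genes were chosen after their values were seen. So were MDM2, SMAD3, FOXO1, MYC, EED, SMAD4 and the unpassed probe sets of named genes.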

Additional observations from a re-analysis of the deposited data

How the results depend on the processing

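The CDKN1A calls held under every alternative run. The count of CDK inhibitor probe sets that fell, 0 as deposited, was 19 when scaled to the hybridization controls, 12 when scaled to the poly-A controls, 2 without variance moderation, 6 with an intensity trend and 1 with dim probe sets removed. Over all probe sets, rises numbered 557, 1184 and 1109 and falls 40238, 20489 and 1186 when scaled to the hybridization controls, scaled to the poly-A controls and without variance moderation, and falls numbered 4760 with an intensity trend. With single arrays left out, 1313 to 1803 probe sets rose and 902 to 1890 fell, and 2 to 3 of the CDK inhibitor probe sets rose. With a replicate block 1594 probe sets fell and the CDKN1B call at 11717091_s_at was lost (limma adjusted p = 0.0604), and the CDKN1A calls held. LINC00525 was at -0.303 without variance moderation (limma adjusted p = 0.171) and at -0.362 to -0.247 with single arrays left out.

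Directions reversed for CDKN1B when scaled to the hybridization controls (-0.0915 at 11717091_s_at, -0.228 at 11748603_a_at) or the poly-A controls (-0.0876 at 11748603_a_at), and for CDKN2A 11753744_a_at (-0.275 and -0.134). With single arrays left out, values crossed 0 at CDKN1C 11729118_a_at (-0.09 to 0.025), 11763717_a_at (-0.09 to 0.065) and 11763718_x_at (-0.0467 to 0.0483), CDKN2A 11718293_a_at (-0.135 to 0.025) and 11753744_a_at (-0.0583 to 0.0467), and CDKN2B 11726508_a_at (-0.0567 to 0.0133). Scaling shifts all values by construction; the cause of the other changes was not tested. Probe sets within the Tag range can understate a change, though DMRTA1 rose by 0.71 with 1 Tag probe set above its mean signal.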
